A study of Mus musculus with 4 samples.

Results

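Ly49+ CD8 cells were a small group of the T cells that infiltrated B16 melanomas, and they differed from the other CD8 cells of the same tumors in their receptors, their effector genes and their T cell receptors (TCRs). They carried RNA of further Ly49 receptors, of other lectin receptors of natural killer (NK) cells and of the signaling adaptors Fcer1g and Tyrobp. Levels of Gzmk, Pdcd1 and Cxcr6 were lower than in the other CD8 cells. Most Ly49+ cells with a complete TCR were the only cell of their clonotype, whereas in the other CD8 cells many belonged to expanded clonotypes. No Cd8b1 RNA was counted in about every other member.

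The members were chosen by their own RNA counts. A member held at least 600 detected genes and under 30% mitochondrial unique molecular identifiers (UMIs, each standing for a captured RNA molecule). It also held at least 1 UMI of Cd3e, at least 1 UMI of Cd8a or Cd8b1, no UMI of Cd4 or Foxp3, and at least 2 UMIs of Klra6 and Klra7 together. Of 10224 WT and 9946 VISTA-KO cells that passed the filters on genes and mitochondrial UMIs, 5068 and 4084 met the CD8 criteria, and 99 and 63 of these were Ly49+, 162 of 20170 cells in all. The comparison cells were the 4923 WT and 4001 VISTA-KO cells that met the same CD8 criteria without a UMI of Klra6 or Klra7, and the 46 and 20 cells with exactly 1 such UMI were kept apart. Because Klra6, Klra7, Cd8a, Cd8b1, Cd3e, Cd4 and Foxp3 chose the cells, their levels are given only as a description.

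The tumors were B16bl6, a transplantable melanoma line, grown in male and female C57BL/6 mice. The methods give an age of 6 to 8 weeks for mice of the tumor models, without stating it apart for the sequenced animals. WT mice were Vsir fl/fl, with the gene of the inhibitory receptor VISTA flanked by loxP sites, and VISTA-KO mice were Vsir fl/fl littermates with CD4-Cre, which is driven by the Cd4 promoter and acts in both CD4 and CD8 T cells because these pass through a stage with both coreceptors, while other cells of the host keep the gene. Mice of both genotypes received a vaccine of a mutated TRP2 peptide with CpG and R848 on day 3 and 100 µg of an anti-CTLA-4 antibody (clone 9H10) on days 4 and 8, so that no untreated cells were sequenced. Sorted CD4 and CD8 T cells, taken on day 18 after treatment, were pooled over mice into 1 RNA library and 1 TCR library per genotype, from 5 to 6 mice or 6 to 8 tumors, as different passages of the study state. The RNA libraries held 72098984 UMIs in 10337 barcodes (WT) and 59916814 UMIs in 10085 barcodes (VISTA-KO), and 145 barcodes occurred in both, none of them in a Ly49+ cell. With 1 pooled library per genotype there was no replicate check and no test. Library and genotype cannot be told apart, and all intervals are exact 95% intervals (Poisson for levels, Clopper-Pearson for shares) that cover counting error only. Vsir itself measured 95.4 CPM in WT and 86.9 in VISTA-KO Ly49+ cells (CPM, a gene's UMIs scaled by all UMIs of the cell group), and 113 and 112 CPM in comparison cells. This did not check the labels, because the counts do not show which exons the reads came from, so WT and VISTA-KO below stand for the libraries with these labels.

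Ly49 receptors are C-type lectin-like receptors of rodents, named Klra genes, that lie side by side in the NK gene complex and bind MHC class I molecules. Most carry an inhibitory motif that recruits phosphatases, and a few signal through the adaptor encoded by Tyrobp. They are best known on NK cells, where each cell expresses some of the family, and they also occur on subsets of CD8 T cells, including memory-like, intraepithelial and regulatory CD8 T cells, the last of which carry the transcription factor Helios, encoded by Ikzf2.

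Ly49+ cells made up 1.95% (1.59 to 2.37) of the gated CD8 cells of the WT library and 1.54% (1.19 to 1.97) of those of the VISTA-KO library, and the 2 intervals overlapped. Over all cells that passed the filters, their shares were 0.968% and 0.633%. For background, cells with at least 1 Cd4 UMI and no CD8 UMI among Cd3e+ cells reached 2 Klra6 or Klra7 UMIs in 4 of 1842 WT cells (0.217%, median 3957 UMIs per cell) and 8 of 3220 VISTA-KO cells (0.248%, median 4222). Siglech is a marker of plasmacytoid dendritic cells. Among cells with at least 2 UMIs of it and no Cd3e UMI, 0 of 146 and 0 of 103 reached 2 Klra6 or Klra7 UMIs. The exact intervals allow shares of up to 2.49% and 3.52%, at medians of 8300.5 and 8712 UMIs. The share among CD8 cells was therefore above that of CD4 T cells in both libraries, at a somewhat higher median depth of 4742 and 5196 UMIs in comparison cells.

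Many members lay close to the threshold. Exactly 2 Ly49 UMIs were counted in 33 of the 99 WT and 16 of the 63 VISTA-KO cells, and 39 and 26 cells held 5 or more. Both genes were present in 39 and 22 cells, Klra7 alone in 37 and 27, and Klra6 alone in 23 and 14. Klra6 measured 184 CPM in WT and 176 in VISTA-KO Ly49+ cells, and Klra7 measured 420 and 460 CPM. Ly49+ cells were also deeper than the comparison cells, with a median of 6627 (WT) and 6946 (VISTA-KO) UMIs per cell, and the cells with exactly 1 Ly49 UMI lay between them in WT at 5548 and near the members in VISTA-KO at 6756.5. Some other genes followed the number of Ly49 UMIs. Fcer1g measured 280, 546 and 897 CPM in WT cells with 1, 2 and at least 5 Ly49 UMIs, and 386, 799 and 1106 CPM in the corresponding VISTA-KO cells. Cd8b1 ran the other way, with 596, 482 and 361 CPM in WT and 752, 514 and 262 CPM in VISTA-KO cells. Pdcd1, which encodes PD-1, measured 145, 222 and 56.1 CPM in WT, in no steady order, and 235, 174 and 163 CPM in VISTA-KO.

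The CD8 label was met in part. Cd8b1, the beta chain of the CD8 coreceptor, had no UMI in 52 of 99 WT (52.5%, 42.2 to 62.7) and 32 of 63 VISTA-KO Ly49+ cells (50.8%, 37.9 to 63.6), against 2.30% and 3.85% of the comparison cells. It measured 410 CPM in WT Ly49+ cells against 1642 CPM in comparison cells, and 313 against 1474 CPM in VISTA-KO, although the Ly49+ cells were the deeper group. Cd8a, the alpha chain, which can pair with itself on innate-like and intraepithelial T cells, was missing from only 5 of 99 and 3 of 63 Ly49+ cells, and it measured 698 against 1119 CPM in WT and 653 against 1067 CPM in VISTA-KO. Cd3e, part of the TCR complex, measured 1299 against 1650 CPM and 1278 against 1591 CPM. The group is therefore called by its rule, Ly49+ cells of the CD8 gate, and both its Cd8b1-positive and Cd8b1-negative members are described below.

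Across the 5996 genes that reached 20 CPM in either cell group in each library, 51 were at least 2-fold higher (0.851%) and 39 at least 2-fold lower (0.65%) in Ly49+ cells than in comparison cells of both libraries, on the scale of log2(CPM + 5). The median log2 ratio over all of these genes was -0.05 in either library. Of the 51 higher genes, 31 were under 20 CPM in comparison cells of at least 1 library and entered through the Ly49+ cells, and 16 of the 39 lower genes entered through the comparison cells in the same way. The ratios of the 2 libraries correlated across genes with r = 0.553, and 64.5% of the genes had the same sign in both, where genes are not independent replicates and both libraries were split by the same rule.

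**Figure D1:**
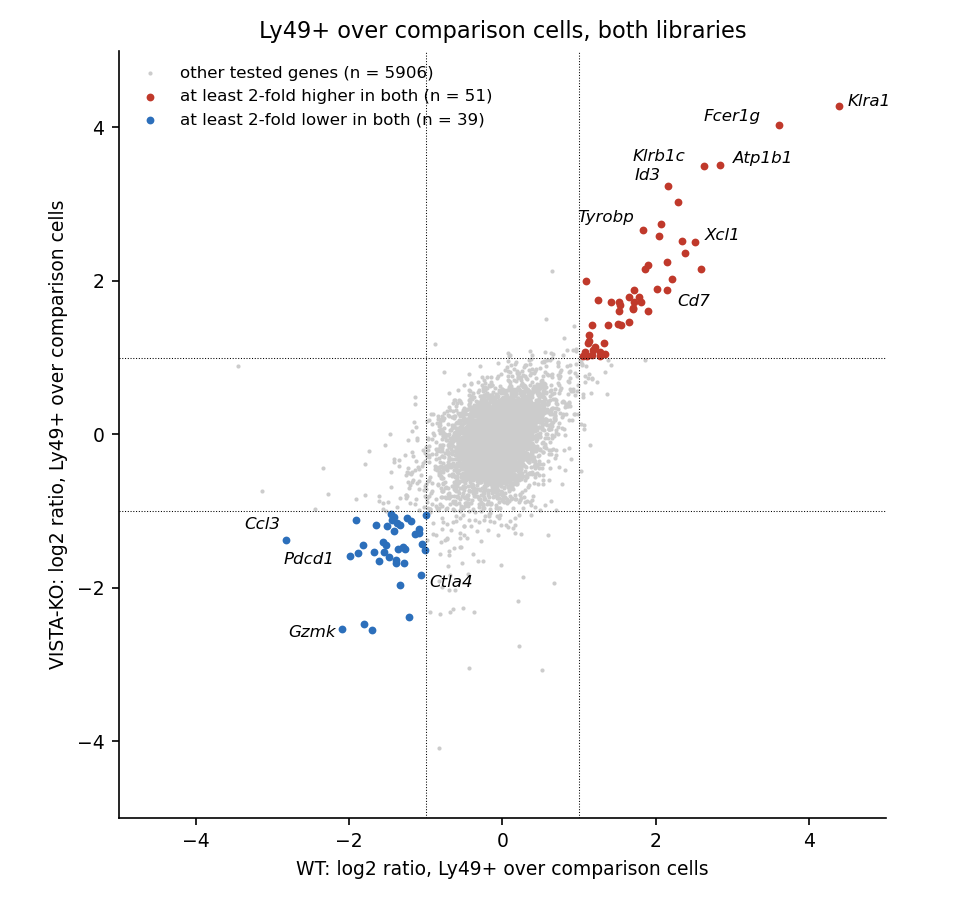
Log2 ratio of Ly49+ over comparison cells for each of the 5996 tested genes, WT on the horizontal and VISTA-KO on the vertical axis, with dotted lines at 2-fold. The 51 red genes, led by Klra1 and Fcer1g, lay past 2-fold higher in both libraries, and the 39 blue genes, with Gzmk at the lower edge, lay past 2-fold lower.

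Of the further Ly49 genes 2 were tested, Klra1 and Klra9, and both were past 2-fold higher in both libraries. Both were under 20 CPM in comparison cells of either library, so they could be compared only because they were high in Ly49+ cells. All 13 Klra genes looked for were found in the RefSeq annotation on chr6:129831154-131247716 of GRCm38.p6, with Klra6 (ENSMUSG00000061769) at chr6:130013033-130026960, Klra7 (ENSMUSG00000067599) at chr6:130218605-130233322 and Klra1 (ENSMUSG00000079853) at chr6:130363918-130386874. Klra1, which encodes the inhibitory receptor Ly49A, measured 132 CPM in WT Ly49+ cells against 1.55 CPM in comparison cells, and 115 against 1.16 CPM in VISTA-KO. Its log2 ratios of 4.39 (4.09 to 4.67) and 4.28 (3.90 to 4.64) headed the tested genes in both libraries, and the intervals of the 2 groups lay far apart. A Klra1 UMI was present in 32 of 99 (32.3%) and 17 of 63 (27.0%) Ly49+ cells and in 0.386% and 0.400% of comparison cells. Klra9 measured 34.3 against 3.03 CPM in WT and 59.2 against 2.89 CPM in VISTA-KO, with log2 ratios of 2.29 and 3.02, but among cells without a Cd8b1 UMI it measured 31.3 against 60.2 CPM and 70.8 against 69.5 CPM. Klra3 was found in 8 of 99 and 4 of 63 Ly49+ cells and in 2.68% and 1.47% of comparison cells, and it did not reach the level needed for the comparison. Klra5 was found in 1 WT and 7 VISTA-KO members, where it measured 46.2 CPM against 1.31 CPM. Klra8 was found in 1 and 3 members, and Klra4 and Klra10 were at 0 in all Ly49+ cells. Members of this family are near copies of each other, so the split of UMIs between them, Klra6 and Klra7 of the gate included, is uncertain.

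The choice of Ly49 gene went with no steady order of the others. In WT cells with Klra6 alone, Klra1 measured 310 CPM, above the 100 CPM of cells with Klra7 alone and the 56.6 CPM of cells with both. In VISTA-KO the same 3 groups measured 75.2, 196 and 58.8 CPM, so that the order of the first pair was turned. Fcer1g was higher in Klra6-only cells in WT (914 against 523 CPM) and higher in Klra7-only cells in VISTA-KO (1089 against 594 CPM).

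Other lectin receptors of the NK complex were higher as well. Of 14 such genes 9 were tested, and 5 of them (Klrb1a, Klrb1c, Klrb1f, Klrc2 and Klre1) were past 2-fold higher in both libraries and none lower. Of these 5, all but Klre1 reached 20 CPM in Ly49+ cells alone, so they could be compared only because they were high there. Among cells without a Cd8b1 UMI, Klrb1a and Klrb1c alone of the list were past 2-fold higher in both libraries, and the log2 ratios were 1.21 and -0.0040 for Klre1, 0.96 and 0.14 for Klrc2 and 1.91 and 0.87 for Klrb1f. Klrb1c, which encodes NK1.1, measured 39.4 against 2.21 CPM in WT and 83.2 against 2.78 CPM in VISTA-KO, and a UMI of it was present in 19.2% and 31.7% of Ly49+ cells and 1.02% and 1.17% of comparison cells. Klre1, which pairs with other lectin chains on NK cells, measured 128 against 25 CPM and 189 against 35.7 CPM. Klrc2, the activating receptor NKG2C, measured 57.2 against 10.4 CPM and 55.5 against 11.2 CPM. These receptors were low in comparison cells of both libraries, whereas the following were expressed there too. Klrd1, encoding CD94, the partner of the NKG2 receptors, measured 593 against 275 CPM in WT and 514 against 275 CPM in VISTA-KO, and Klrk1, encoding the activating receptor NKG2D, measured 455 against 171 CPM and 425 against 215 CPM. Both were past 2-fold in WT alone (log2 ratios of 1.09 and 1.38, against 0.89 and 0.97 in VISTA-KO). Klrc1, the inhibitory receptor NKG2A, and Klrg1, an inhibitory receptor of terminal effector cells, had ratios below 0 in both libraries, at -0.45 and -0.11 for Klrc1 and -1.21 and -0.50 for Klrg1.

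Among the signaling proteins behind these receptors, the adaptors encoded by Fcer1g and Tyrobp stood out, and other adaptors and the proximal TCR kinases did not. Over the alternative settings, the smaller of the libraries' log2 ratios ranged from -0.13 to 0.10 for Hcst and from -0.72 to -0.13 for Cd247. Smaller is meant in size, and the mean was taken where the signs differed. Of 10 adaptor and phosphatase genes 9 were tested, 2 were higher and none lower, with a median log2 ratio of -0.02 in either library. Ratios were above 0 in both libraries for 4 of the 9 and below 0 in both for 5. Fcer1g, on chr1:171229572-171234349 of GRCm38.p6, encodes the gamma chain of Fc receptors, which also serves NK receptors. It measured 730 CPM in WT Ly49+ cells against 55.5 CPM, and 884 against 49.4 CPM in VISTA-KO, with log2 ratios of 3.60 (3.47 to 3.74) and 4.03 (3.88 to 4.18). An Fcer1g UMI was present in 77.8% and 88.9% of Ly49+ cells against 5.53% and 6.05% of comparison cells, and at an equal depth of 2000 UMIs the expected shares were 62.6% against 3.13% and 72.4% against 3.58%. Most members in both libraries thus held Fcer1g RNA and few comparison cells did. Tyrobp, encoding the adaptor DAP12 of activating Ly49 receptors, measured 177 against 38.5 CPM in WT and 202 against 26.0 CPM in VISTA-KO, with a UMI in 30.3% and 39.7% of members. Ptpn6, the phosphatase SHP-1 that inhibitory Ly49 receptors recruit, had log2 ratios of 0.35 and 0.56. The 8 genes of MHC class I, which supplies the ligands of Ly49 receptors, were all tested and none was past 2-fold, at medians of -0.11 and -0.15. H2-K1 had ratios of -0.07 and -0.10, and H2-D1 of -0.07 and -0.08.

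**Figure D2:**
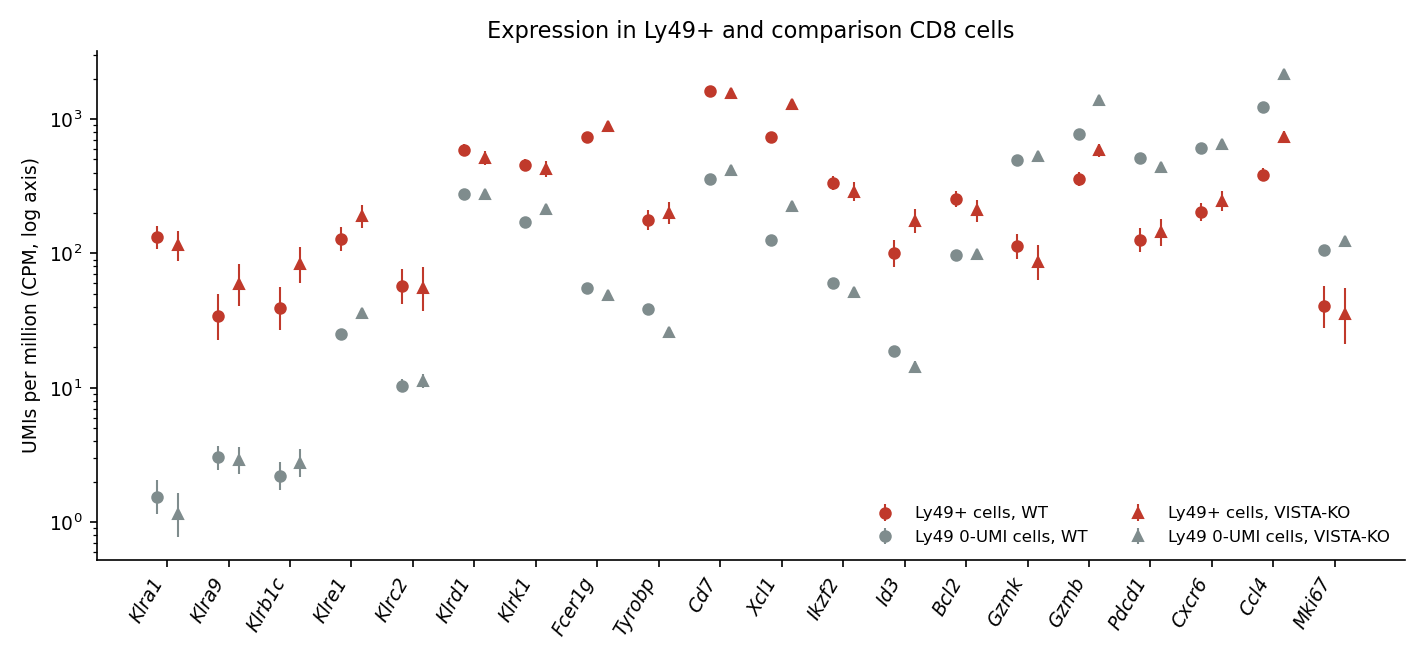
Level of 20 genes in CPM on a log axis, in Ly49+ cells (red) and comparison cells (grey) of the WT (circles) and VISTA-KO (triangles) libraries, with bars for the exact 95% Poisson interval. The red and grey symbols of Klra1 and Fcer1g lie far apart, and for the last genes on the axis, Gzmk to Mki67, the grey symbols lie above the red ones.

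Genes of innate-like T cells were among the highest. Of 10 such genes 8 were tested, and 5 (Klrb1c, Fcer1g, Tyrobp, Cd160 and Cd7) were higher and none lower, with medians of 1.66 and 1.82. Klrb1c was tested only through its level in the members. Among cells without a Cd8b1 UMI, 3 of the 8 (Klrb1c, Fcer1g and Cd160) were past 2-fold higher in both libraries. Cd7, an immunoglobulin-family molecule of T and NK cells, measured 1617 CPM in WT Ly49+ cells against 360 CPM and 1566 against 420 CPM in VISTA-KO, with log2 ratios of 2.15 and 1.89. A Cd7 UMI was present in 96.0% and 93.7% of the members and in 52.9% and 55.3% of comparison cells. Cd160, a receptor for HVEM on NK and CD8 T cells, measured 341 against 140 CPM and 394 against 113 CPM. Cd244a, the SLAM-family receptor 2B4, measured 78.9 against 17.4 CPM and 68.4 against 19.2 CPM. Xcl1, the chemokine that draws cross-presenting dendritic cells, measured 742 against 126 CPM in WT and 1304 against 225 CPM in VISTA-KO, with a log2 ratio of 2.51 in both. Its level rested in part on few cells, since 110 of 583 UMIs in WT and 320 of 705 in VISTA-KO came from 1 cell each, but a UMI of it was present in 80.8% and 82.5% of members against 10.6% and 14.1% of comparison cells. The difference was therefore spread over most members.

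Ikzf2, which encodes Helios, was the gene of the regulatory CD8 list that differed. It measured 333 CPM in WT Ly49+ cells against 59.99 CPM and 288 against 52.0 CPM in VISTA-KO, with log2 ratios of 2.38 (2.19 to 2.56) and 2.36 (2.12 to 2.60). A UMI of it was present in 80.8% and 74.6% of members and in 16.9% and 16.8% of comparison cells, and at 2000 UMIs the expected shares were 48.0% against 6.72% and 41.7% against 7.4%. Of the 13 genes of this list 8 were tested, 1 was higher and none lower, and the medians were -0.04 and -0.23. Il2rb, the receptor chain shared by interleukin-2 and interleukin-15 and high on Ly49+ regulatory and memory CD8 cells, measured 786 against 571 CPM and 821 against 575 CPM. Cd44, a marker of antigen-experienced T cells, had log2 ratios of 0.07 and -0.10. The lists of virtual memory and circulating effector cells had medians near 0. Of 11 tested virtual memory genes 2 were higher, Bcl2 among them, and none lower (medians 0.07 and -0.08), and none of 11 tested genes of circulating effector cells was past 2-fold (medians 0.07 and 0.02). Eomes, the T-box factor of memory cells, had ratios of -0.39 and -0.08, and Tbx21, encoding T-bet, of 0.08 and 0.02.

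Some genes of memory and naive T cells were higher. Of 10 tested genes of memory and progenitor cells 2 were higher, Id3 among them, and none lower, with medians of 0.86 and 0.41. Among cells without a Cd8b1 UMI this did not hold. There none of the 10 was past 2-fold in both libraries, 3 had ratios above 0 in both and 6 below 0 in both. Id3, an inhibitor of E proteins, measured 100 against 18.6 CPM and 176 against 14.2 CPM, where 38 of its 95 VISTA-KO UMIs came from 1 cell. Among cells without Cd8b1 the Id3 ratio was 0.074 (-0.48 to 0.63) in WT and 3.20 in VISTA-KO. Tcf7, encoding TCF1, a factor of naive and stem-like T cells, measured 337 against 131 CPM in WT and 235 against 132 CPM in VISTA-KO, at log2 ratios of 1.33 and 0.81, so it was past 2-fold in WT alone. Without a Cd8b1 UMI the ratios of Tcf7 were 0.32 and 0.33. Bcl2, which protects cells from death, measured 254 against 97.9 CPM and 209 against 98.2 CPM. Without a Cd8b1 UMI its ratios were 0.64 and 0.45. Il7r, the receptor of interleukin-7, had ratios of 0.06 and -0.31, and of -0.93 and -0.98 without a Cd8b1 UMI.

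The other genes among the 15 highest in both libraries had varied roles. Atp1b1, a subunit of the sodium pump, measured 85.2 against 7.61 CPM in WT and 122 against 6.17 CPM in VISTA-KO, at log2 ratios of 2.84 and 3.51. Rbpms, an RNA-binding protein, measured 36.9 against 1.96 CPM and 24.0 against 1.5 CPM. Klrb1a, of the NKR-P1 family, measured 21.6 against 0.253 CPM and 24.0 against 0.0771 CPM. The next of this set were also near 0 in the comparison cells. Klrb1f, another NKR-P1 receptor, measured 31.8 against 3.95 CPM and 53.6 against 4.78 CPM. Cxxc5, a zinc finger protein that binds CpG, measured 33.1 against 3.19 CPM and 27.7 against 3.04 CPM, and Spry2, an inhibitor of receptor kinase signaling, measured 25.4 against 3.13 CPM and 38.8 against 4.51 CPM. Jun, a subunit of AP-1 and 1 of 11 tested immediate-early and stress genes, measured 837 against 330 CPM and 612 against 266 CPM, and was the member of that list past 2-fold in both libraries. Ahr, the aryl hydrocarbon receptor, measured 30.5 against 10.6 CPM and 25.9 against 9.40 CPM. Among cells without a Cd8b1 UMI, Klrb1a alone of the genes in this paragraph was past 2-fold in both libraries. The log2 ratios there were 0.95 and 2.72 for Atp1b1, 0.33 and 1.81 for Rbpms, and 0.65 and 0.97 for Cxxc5. They were 0.57 and 0.78 for Spry2, 0.30 and 0.89 for Jun, and 0.96 and 0.98 for Ahr.

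Some cytotoxic and chemokine genes were lower in the Ly49+ cells. Of 8 tested granule and effector genes 2 were lower and none higher, with medians of -1.03 in WT and -0.50 in VISTA-KO. Gzmk, the granzyme of early effector memory cells, measured 113 CPM in WT Ly49+ cells against 497 CPM and 86.9 against 529 CPM in VISTA-KO, with log2 ratios of -2.09 (-2.39 to -1.80) and -2.54 (-2.96 to -2.15). A Gzmk UMI was present in 24.2% and 25.4% of members and in 71.7% and 64.0% of the shallower comparison cells. Gzmb, the main granzyme of killer cells, measured 359 against 770 CPM and 586 against 1387 CPM. Among cells without a Cd8b1 UMI its log2 ratios were -0.63 and -1.08, so it was past 2-fold in VISTA-KO alone. Perforin (Prf1) measured 81.4 against 200 CPM in WT but 139 against 198 CPM in VISTA-KO, and interferon gamma (Ifng) 77.6 against 221 CPM and 242 against 342 CPM, so both were past 2-fold lower in WT alone. Gzma was lower in WT members (log2 ratio -0.88) and higher in VISTA-KO members (1.18). Of 6 tested chemokines Ccl3 and Ccl4 were lower and Xcl1 higher. Ccl4, an inflammatory chemokine, measured 385 against 1237 CPM and 736 against 2151 CPM, but among cells without a Cd8b1 UMI its log2 ratio was 0.71 in WT and -2.21 in VISTA-KO. Ccl3 measured 50.9 against 391 CPM and 176 against 463 CPM, and without a Cd8b1 UMI it was past 2-fold in WT alone (-1.08 and -0.24). Ccl5 was found in nearly all cells of both groups (98.0% and 100% of members) and had log2 ratios of -0.86 and -0.10.

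Genes of chronic stimulation were split. Of 14 tested exhaustion genes 3 (Pdcd1, Ctla4 and Entpd1) were lower and 2 (Cd160 and Cd244a) higher, with medians of -0.90 and -0.65. Pdcd1, encoding PD-1, measured 126 CPM in WT Ly49+ cells against 514 CPM and 144 against 441 CPM in VISTA-KO, with log2 ratios of -1.99 (-2.27 to -1.71) and -1.58 (-1.91 to -1.27). A UMI of it was present in 23.2% and 30.2% of members and in 57.3% and 53.6% of comparison cells. Ctla4, the target of the antibody given to all mice, measured 71.2 against 154 CPM and 59.2 against 224 CPM. Entpd1, encoding CD39, measured 16.5 against 51.5 CPM and 18.5 against 70.3 CPM. Members of this list that were not past 2-fold in both libraries include Tox, a factor of exhausted cells, with ratios of -0.98 and -0.88, and Lag3, a checkpoint receptor, with -1.49 and -0.89. Havcr2, encoding TIM-3, measured 7.63 against 56.1 CPM in WT and 42.5 against 76.3 CPM in VISTA-KO.

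The other genes among the 15 lowest also had varied roles. Themis, which tunes TCR signals, measured 40.7 against 134 CPM in WT and 37.0 against 127 CPM in VISTA-KO. Chemokine receptors Cxcr6 and Ccr2 were lower too. Cxcr6, found on tissue-resident T cells, measured 205 against 611 CPM and 246 against 657 CPM, while of 7 tested tissue residency genes 2 (Xcl1 and Ahr) were higher and Cxcr6 alone lower, at medians of 0.43 and 0.98. Ccr2 measured 52.1 against 162 CPM and 53.6 against 165 CPM. Of 11 tested T cell fate factors, 2 (Batf and Rora) were lower and Ikzf2 higher. Batf, an AP-1 factor of effector cells, measured 36.9 against 114 CPM and 40.7 against 100 CPM, and Rora, a nuclear receptor, measured 31.8 against 94.7 CPM and 33.3 against 78.3 CPM. Among cells without a Cd8b1 UMI, the 2 lower factors were Rora and Prdm1 and none was higher. The log2 ratios of Batf there were -0.38 and -0.96. Spry1, 1500009L16Rik, Smpdl3b, Csf1, Spc24, Prc1 and Igkc were also among the 15 lowest, most of them on few counts in the members (Spry1 on 3 UMIs in WT and 0 in VISTA-KO).

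Some genes of dividing cells were lower. All 12 of that list were tested, 3 (Mki67, Top2a and Pclaf) were lower and none higher, 11 had ratios below 0 in both libraries, and the medians were -0.80 and -1.07. Mki67, encoding Ki-67, measured 40.7 against 106 CPM in WT and 35.1 against 123 CPM in VISTA-KO. Top2a, a topoisomerase of replicating cells, measured 44.5 against 122 CPM and 49.9 against 150 CPM, and Pclaf, a partner of PCNA, measured 67.4 against 154 CPM and 68.4 against 176 CPM. Among cells without a Cd8b1 UMI this did not hold. There 7 of the 12 genes had ratios above 0 in both libraries and Top2a alone below 0 in both, and Birc5 and Stmn1, which act at the mitotic spindle and on microtubules, were past 2-fold higher. Mki67 measured 37.6 against 55.4 CPM in WT and 57.5 against 37.0 CPM in VISTA-KO in these cells. Of 12 tested cytokine receptors only Il10ra passed 2-fold in both libraries, at 68.7 against 196 CPM and 96.2 against 203 CPM, and none of 10 tested interferon-stimulated genes did, where the medians were -0.13 in WT and -1.12 in VISTA-KO.

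The levels of these genes differed between members with and without a Cd8b1 UMI. Fcer1g measured 997 CPM in the 52 WT members without Cd8b1 and 548 CPM in the 47 with it, and 1097 and 731 CPM in the 32 and 31 VISTA-KO members. Pdcd1 measured 28.2 and 193 CPM in WT and 39.8 and 219 CPM in VISTA-KO, and Gzmk measured 34.5 and 167 CPM and 26.5 and 130 CPM. So the members without Cd8b1 were the higher ones for Fcer1g and the lower ones for Pdcd1 and Gzmk in both libraries. Comparison cells without a Cd8b1 UMI were few and shallow (medians of 3329 and 3737 UMIs), but they too had more Fcer1g than the rest, at 224 CPM in WT and 519 in VISTA-KO against 53.2 and 36.8 CPM. Against them, the members without Cd8b1 had log2 ratios of 2.13 and 1.07 for Fcer1g, 1.44 and 0.98 for Cd7, 1.56 and 2.63 for Xcl1, -2.46 and -2.98 for Pdcd1, and -3.02 and -2.96 for Gzmk. For Ikzf2 the ratio was 1.38 in WT and 0.30 (-0.07 to 0.66) in VISTA-KO, where the interval included 0. Tyrobp had ratios of 2.23 and 0.51, and Klrb1c of 2.40 and 1.12. Among cells with a Cd8b1 UMI, the ratios were 3.25 and 4.14 for Fcer1g, 1.87 and 2.74 for Tyrobp, 2.10 and 3.71 for Klrb1c, 1.96 and 2.16 for Ikzf2, -1.41 and -1.0 for Pdcd1, and -1.55 and -2.0 for Gzmk. The ratios of Fcer1g and Ikzf2 were thus smaller, and those of Pdcd1 and Gzmk larger in size, among cells without Cd8b1 than among cells with it. Within Cd8b1-negative cells of the gate, Ly49+ cells made up 28.6% in WT and 16.6% in VISTA-KO. When the comparison was limited to cells without Cd8b1, 32 of 6047 genes were higher and 99 lower, and 13 of the 51 higher genes and 16 of the 39 lower genes were among them.

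**Figure D3:**
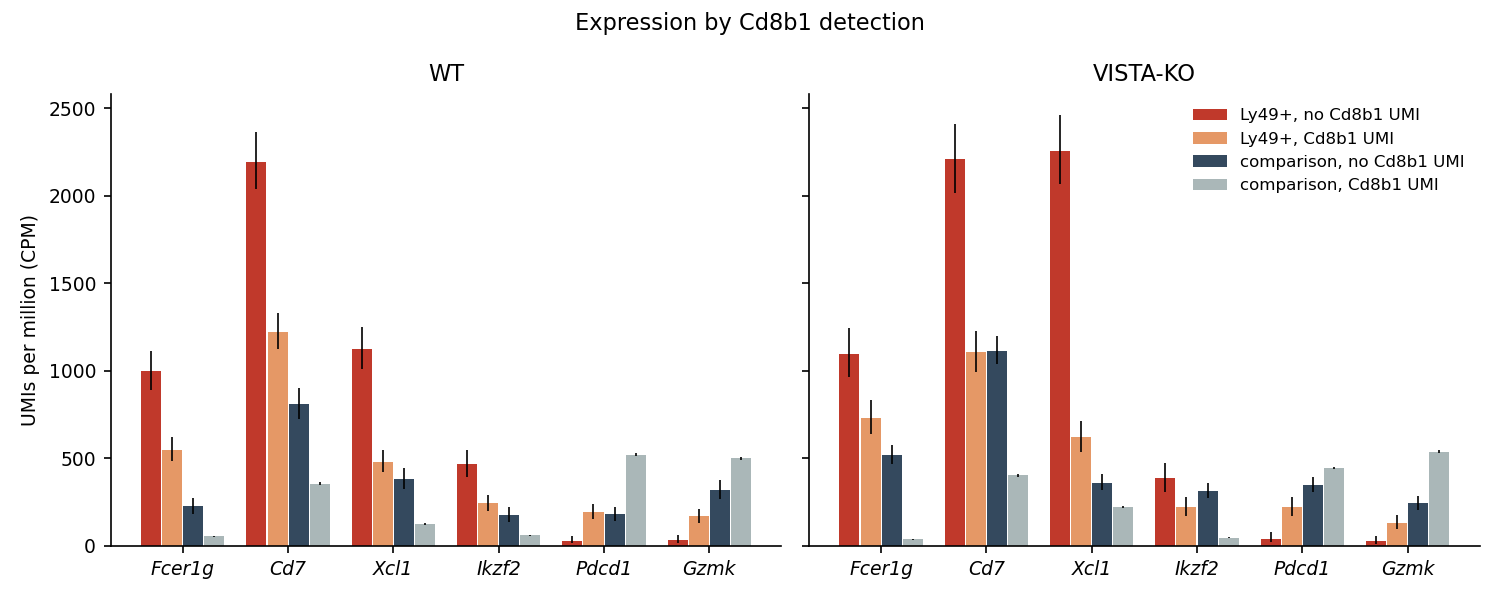
Level in CPM of Fcer1g, Cd7, Xcl1, Ikzf2, Pdcd1 and Gzmk in Ly49+ and comparison cells with and without a Cd8b1 UMI, with 1 panel per library and bars that start at 0. Fcer1g was highest in Ly49+ cells without Cd8b1 (997 and 1097 CPM), and Pdcd1 and Gzmk were lowest there.

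Markers of other cell types moved with the group as follows. Of 8 markers of NK cells 7 were tested, and 5 were higher and none lower. Their summed level was 2034 against 695 CPM in WT and 3084 against 615 CPM in VISTA-KO, and Xcl1 was the most abundant. Klrb1c and Cd244a of this list were tested only through their level in the members. Among cells without a Cd8b1 UMI, 3 of the 7 (Klrb1c, Fcer1g and Xcl1) were past 2-fold higher in both libraries. Ncr1, which encodes the NK receptor NKp46 and defines NK cells, had 0 UMIs in the WT and 2 UMIs in the VISTA-KO members. The gamma-delta T cell markers were not among the tested genes, since TCR segments were ranked apart and the rest were low. They summed to 158 against 34.1 CPM and 116 against 83.8 CPM, with Tcrg-C2 the most abundant (56.0 against 15.8 CPM and 68.4 against 20.1 CPM). Trdc, the constant segment of the delta chain and the defining marker, measured 6.36 against 1.89 CPM and 1.85 against 6.55 CPM, and Sox13 was at 0 in members. Among all TCR segment transcripts, ranked apart, those of the gamma chain led: Tcrg-V4 measured 24.2 against 1.86 CPM in WT and 35.1 against 2.62 CPM in VISTA-KO, Tcrg-C4 52.1 against 5.37 CPM and 38.8 against 7.17 CPM, and Trgv2 195 against 75.1 CPM and 276 against 85.1 CPM. Of 11 myeloid markers 6 were tested, and the 2 higher ones were Fcer1g and Tyrobp, which NK cells also express. Their summed level was 2520 against 1737 CPM and 2657 against 1599 CPM, Ftl1 was the most abundant, and Lyz2 was lower in members (15.3 against 48.9 CPM and 29.6 against 38.2 CPM). C1qa was at 0 in WT members and at 35.1 CPM against 11.2 CPM in VISTA-KO. Of the markers of CD4 and regulatory T cells, 2 were tested and Ctla4 was lower, with sums of 122 against 252 CPM and 126 against 314 CPM. Markers of melanoma cells did not reach 20 CPM in both libraries (sums of 21.6 against 7.17 CPM and 0 against 279 CPM, Tyrp1 at 0 in members of both). Those of B and plasmacytoid dendritic cells showed no difference past 2-fold (327 against 335 CPM and 288 against 341 CPM, with Ms4a1 at 0 in members). The part of RNA from other cells in these levels was not tested beyond these values.

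The TCR libraries gave a productive alpha and a productive beta chain for 66 of 99 WT (66.7%) and 51 of 63 VISTA-KO (81.0%) Ly49+ cells. No chain was found for 29 (29.3%) and 8 (12.7%) of them, against 15.3% and 9.02% of comparison cells. The chains were missing more often from members with Cd8b1 than from those without it, in 22 of 47 against 7 of 52 WT cells and 7 of 31 against 1 of 32 VISTA-KO cells. Of the members with both chains 1 in each library had the TRAV11 and TRAJ18 segments of invariant NKT cells. Trac, the constant segment of the alpha chain, measured 257 against 290 CPM and 272 against 329 CPM in the RNA libraries, so that the members had nearly the alpha-chain RNA of comparison cells.

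Ly49+ cells were spread over many clonotypes, a clonotype being the V segment and junction of the alpha and beta chains with the most UMIs. The 66 WT cells fell into 60 clonotypes and the 51 VISTA-KO cells into 47, and the largest held 3 members in either library. This rule split 1 WT clone of 5 Ly49+ cells with the same beta junction, described below, into clonotypes of 3 and 2 members, because its cells carried a pair of alpha chains. They were the only gated cell of their clonotype in 53 of 66 (80.3%, 68.7 to 89.1) WT and 42 of 51 (82.4%, 69.1 to 91.6) VISTA-KO cells, against 18.5% and 36.0% of comparison cells. Clonotypes of at least 5 gated cells held 4 of 66 members in WT (6.06%, 1.68 to 14.8) and 2 of 51 in VISTA-KO (3.92%, 0.478 to 13.5), against 72.6% (71.2 to 74.0) of 3867 and 45.6% of 3248 comparison cells. By the beta junction alone the members' shares were 8.57% (6 of 70) and 5.45% (3 of 55). Of the cells with exactly 1 Ly49 UMI, 4 of 34 in WT (11.8%) and 6 of 15 in VISTA-KO (40%, 16.3 to 67.7) were in such clonotypes, and with these cells counted as members the shares were 8% (8 of 100) and 12.1% (8 of 66). The members had few expanded cells in both libraries, whereas the comparison cells of the 2 libraries were far apart. The chance that 2 cells drawn at random share a clonotype (Simpson index) was 0.00326 against 0.0769 in WT and 0.00471 against 0.0114 in VISTA-KO. Equal draws from the comparison cells would hold 40.6 clonotypes in 66 WT cells and 44.2 in 51 VISTA-KO cells on average, against the 60 and 47 found, so the gap was wide in WT and narrow in VISTA-KO. The largest gated clonotype, of 1006 cells in WT and 285 in VISTA-KO, held no Ly49+ cell. Only 2 of 97 WT and 2 of 102 VISTA-KO clonotypes of at least 5 cells held any. Comparison cells shared a clonotype with 2 of the 66 and 3 of the 51 members. No clonotype of a member was found in both libraries.

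**Figure D4:**
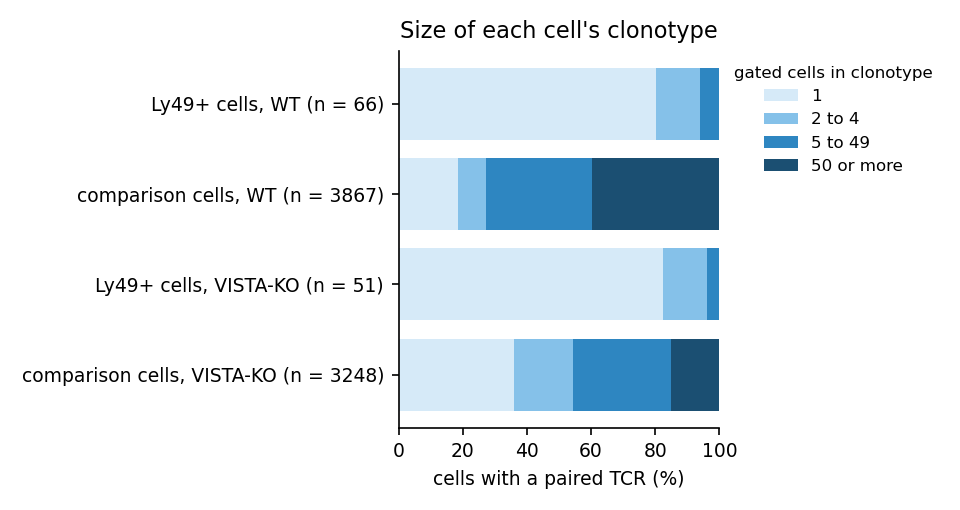
Share of cells with both TCR chains by the number of gated cells in their clonotype (1, 2 to 4, 5 to 49, 50 or more), for 66 and 51 Ly49+ and 3867 and 3248 comparison cells. Single-cell clonotypes made up 80.3% and 82.4% of Ly49+ cells and 18.5% and 36.0% of comparison cells.

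This too differed within comparison cells by Cd8b1. Clonotypes of at least 5 cells held 31.4% (22 of 70) and 28.7% (33 of 115) of the comparison cells without a Cd8b1 UMI, and 7.14% (3 of 42) and 0 of 29 of the Ly49+ cells without it, where 0 of 29 allows a share of up to 11.9%. By this share, comparison cells without Cd8b1 were less expanded than comparison cells at large, and the Ly49+ cells without it were lower still. By the Simpson index the order was the other way in WT, at 0.00813 in Ly49+ against 0.00373 in comparison cells without Cd8b1. In VISTA-KO it was 0.00246 against 0.0104. The largest clonotype held 7.14% against 4.29% of these cells in WT and 6.90% against 6.96% in VISTA-KO.

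The junctions of the most repeated Ly49+ receptors are given because they show which members descend from a shared cell. In WT, 1 beta chain stood out. It used TRBV12-1 and TRBJ2-5 and was found in 11 cells that passed the filters, 5 of them Ly49+ and 2 with exactly 1 Ly49 UMI, while the other 4 lay outside the CD8 gate and also held Ly49 UMIs, and no comparison cell had it. All 11 cells carried an alpha chain of TRAV13N-3, and 10 also carried one of TRAV16N. Its 3 junctions follow, 5′ to 3′, with those of a receptor shared by 2 WT members with TRAV7D-5, and in capitals stand the bases between the end of the V and the start of the J alignment, where D segment bases of the beta chain and untemplated bases lie.
TRAV13N-3 TRAJ26: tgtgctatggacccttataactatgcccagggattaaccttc
TRAV16N TRAJ23: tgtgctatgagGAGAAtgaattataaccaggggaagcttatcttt
TRBV12-1 TRBJ2-5: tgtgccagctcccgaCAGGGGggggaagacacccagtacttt
TRAV7D-5 TRAJ9: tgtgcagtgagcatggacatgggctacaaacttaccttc
TRBV13-3 TRBJ2-7: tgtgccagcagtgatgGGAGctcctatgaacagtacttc

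The cells of the TRBV12-1 and TRBJ2-5 clone were uniform in their Ly49 genes. All 11 held Klra6 (30 UMIs in all) and none held Klra7, and 10 held Klra1 (44 UMIs). Fcer1g was present in all 11 (64 UMIs) and Ikzf2 in 9 (29 UMIs). Cd8b1 and Gzmk had no UMI in any of them, Cd8a was found in 7 cells and Pdcd1 in 3, at a median depth of 4545 UMIs per cell. The clone with TRBV13-3 was of another kind, with 41 UMIs of Klra7 and 11 of Klra6 in its 3 cells.

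In VISTA-KO, the most repeated receptors were a pair with TRBV16, each with 3 Ly49+ cells. They had different alpha chains and J segments, and both had a run of G in the beta junction between the V and the J alignment.
TRAV12-2 TRAJ49: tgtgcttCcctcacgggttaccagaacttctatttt
TRBV16 TRBJ2-7: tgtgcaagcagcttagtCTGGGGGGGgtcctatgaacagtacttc
TRAV13D-4 TRAJ13: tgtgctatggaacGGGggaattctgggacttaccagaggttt
TRBV16 TRBJ2-1: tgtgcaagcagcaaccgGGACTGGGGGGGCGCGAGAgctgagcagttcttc
Both clones held Klra7 (15 UMIs in the first and 14 in the second) and no Klra6. They also held Klra1, with 6 and 22 UMIs, and Fcer1g, with 34 and 38 UMIs. No comparison cell carried either receptor. The repeated clones of both libraries were picked for their Ly49+ cells and most held few cells, so the lack of comparison cells in them says little. Over all members with a beta chain, 2 of 70 in WT and 5 of 55 in VISTA-KO shared it with comparison cells.

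V segments of the members followed these clones. TRBV12-1 was used by 12 of 70 WT Ly49+ cells with a beta chain (17.1%), but by 7 of 60 clonotypes (11.7%, 4.82 to 22.6) against 6.71% of comparison clonotypes, which lay within the interval. In VISTA-KO it was used by 4 of 55 cells. TRBV16 was used by 8 of 55 VISTA-KO cells (14.5%) but by 3 of 47 clonotypes (6.38%), against 8.55% of comparison clonotypes. The median junction length was 42 bases in members and comparison cells alike.

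The libraries were then compared within Ly49+ cells. Of 3251 genes with at least 50 CPM in either library, 31 were at least 2-fold higher (0.954%) and 24 at least 2-fold lower (0.738%) in the library labelled VISTA-KO, with an interval that left out 0, and the median log2 ratio was -0.02. In the comparison cells, 4 of the same 3251 genes were past 2-fold higher and 5 past 2-fold lower, whatever their interval. These counts cannot be set against those of the Ly49+ cells, which hold far fewer UMIs and have a larger counting error. Of the 31 higher and 24 lower genes of the Ly49+ cells, 23 and 13 had the same sign in comparison cells. The share of the same sign over all 3251 genes is not given, so nothing is read from these counts. Among the 51 genes that were higher in Ly49+ cells than in comparison cells, some had an interval of VISTA-KO over WT that left out 0. The share of all tested genes with such an interval is not given, so nothing is said about the 51 genes as a set. The intervals below 0 were those of Jun at -0.45 (-0.64 to -0.26) and Evl at -0.50 (-0.80 to -0.20). Klra1 and Ikzf2 each had a ratio between the libraries, VISTA-KO over WT, of -0.20 on the log2 scale, and Cd7 of -0.05. The intervals above 0 were those of Neurl3 at 0.40 (0.048 to 0.75), Lat2 at 0.85 (0.33 to 1.38) and, among the 15 highest genes, 0.99 (0.37 to 1.62) for Klrb1c, 0.81 (0.65 to 0.97) for Xcl1, 0.78 (0.35 to 1.20) for Id3, 0.71 (0.013 to 1.40) for Klra9, 0.54 (0.14 to 0.93) for Klre1, 0.49 (0.011 to 0.97) for Atp1b1 and 0.27 (0.098 to 0.45) for Fcer1g. None of these passed 2-fold. In comparison cells the ratio was the same for Xcl1, at 0.81, and near it for Klre1, at 0.44, and it was 0.11 for Klrb1c, -0.025 for Klra9, -0.15 for Fcer1g, -0.18 for Atp1b1 and -0.30 for Id3. Without the highest cell of each library the ratios of Xcl1 and Id3 in members were 0.24 and 0.25.

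Some of these differences came from single cells. Gzmc, a granzyme of strongly stimulated cells, measured 3.82 CPM in WT and 309 in VISTA-KO, but 162 of its 167 VISTA-KO UMIs came from 1 cell, and Il4i1, an enzyme that degrades amino acids, had 37 of 38 UMIs in 1 cell. Hist1h2ae had 15 of 31 UMIs in 1 cell. Among the lower genes, Ube2c, of the mitotic ubiquitin machinery, had 29 of 54 WT UMIs in 1 cell, Mt1, a metallothionein, 36 of 58, and Isg15, a ubiquitin-like interferon-stimulated protein, 50 of 112. These lower genes did not depend on that cell for their call, since their log2 ratios without the highest cell were -2.43, -2.27 and -1.36. When the cell with the most UMIs of each gene was left out, 20 of the 31 and 21 of the 24 genes were still past 2-fold.

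Genes higher in VISTA-KO had varied roles. Ifng, encoding interferon gamma, measured 77.6 CPM in 26 of 99 WT cells and 242 CPM in 32 of 63 VISTA-KO cells, with a log2 ratio of 1.58 (1.16 to 2.02) against 0.62 in comparison cells. Ccl3 measured 50.9 and 176 CPM (1.69, against 0.24 in comparison cells). Rgs16, which damps chemokine receptor signals, measured 75.0 and 248 CPM (1.66, against 0.59), where 48 of 134 VISTA-KO UMIs came from 1 cell and the ratio was turned, to -1.78, in members without a Cd8b1 UMI. Of 9 tested granule and effector genes 3 (Ifng, Gzma and the single-cell Gzmc) were higher and none lower, and 2 of 11 exhaustion genes, Rgs16 and the activation-induced Nr4a1, were higher and none lower. Nr4a1 measured 135 and 303 CPM at a ratio of 1.14, below the 1.57 of comparison cells. Gadd45b, a stress-response gene, measured 62.3 and 218 CPM (1.73, against 0.75), and Lig1, the DNA ligase of replication, 24.2 and 85.1 CPM (1.63, against 0.09).

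Genes lower in VISTA-KO included some interferon-stimulated and heat shock genes. Of 8 tested interferon-stimulated genes 3 were lower and none higher, with a median of -0.65 in Ly49+ cells against 0.20 in comparison cells. Isg15 measured 142 CPM in WT and 48.1 in VISTA-KO, and Isg20, a nuclease, measured 85.2 and 27.7 CPM at a log2 ratio of -1.46 against -0.06 in comparison cells. Usp18, which removes the ISG15 tag, measured 66.1 and 29.6 CPM, and it was no longer past 2-fold without its highest cell (-0.73). Of 11 tested immediate-early and stress genes 3 (Hspa1a, Hspa1b and Egr1) were lower and none higher. Hspa1a and Hspa1b, the inducible HSP70 genes, measured 220 and 62.9 CPM and 223 and 68.4 CPM, with log2 ratios of -1.73 and -1.63 against -0.22 and -0.41 in comparison cells. Egr1, an immediate-early factor, measured 154 and 51.8 CPM (-1.48, against 0.21), and Cenpa, the histone of centromeres, 87.8 and 25.9 CPM (-1.59, against 0.05). Gm42031 was lower in both cell groups, at 62.3 and 16.6 CPM in members and ratios of -1.64 and -2.30. Whether the genotype, the animals or the handling of the library went with these differences cannot be told apart.

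**Figure D5:**
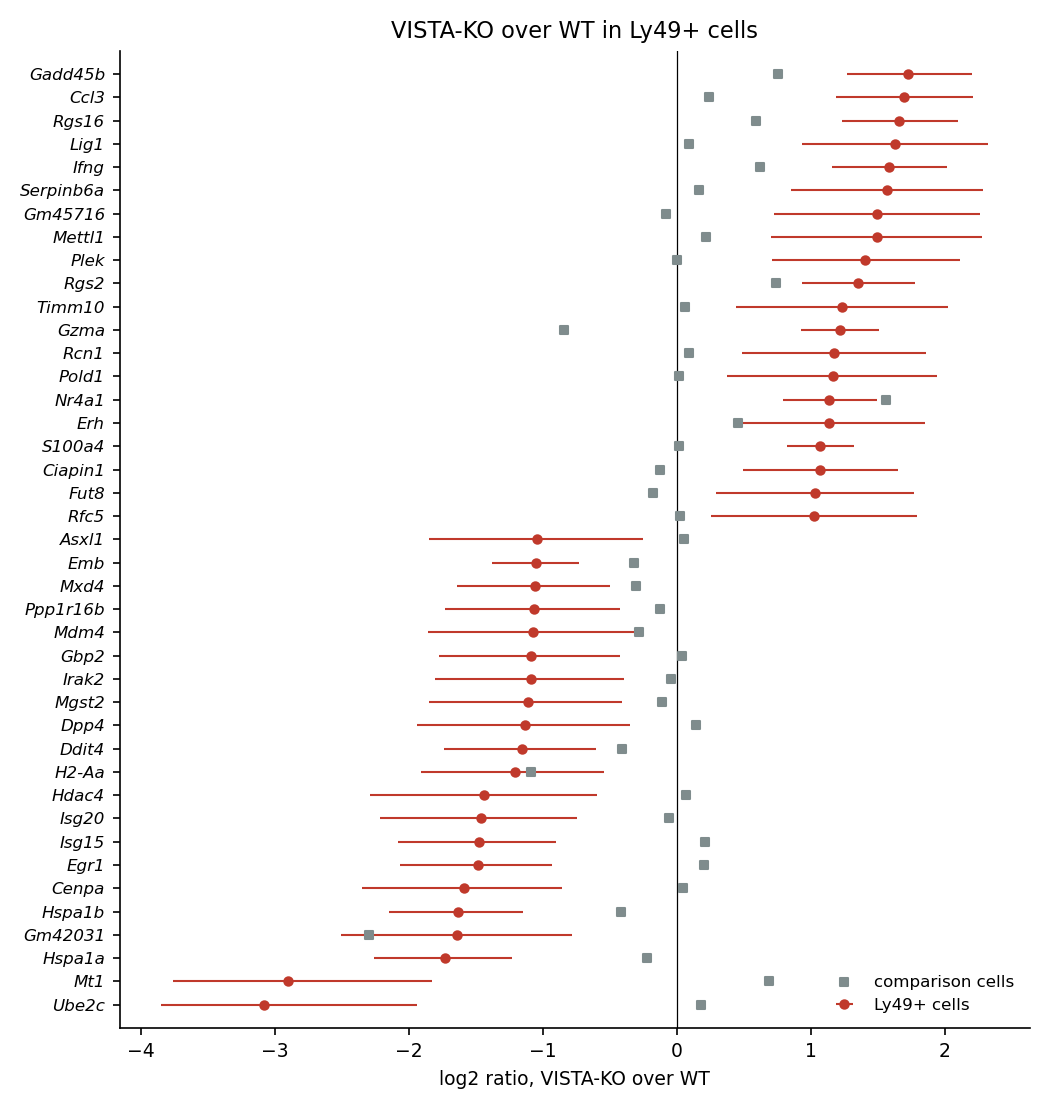
Log2 ratio of VISTA-KO over WT for the 41 genes past 2-fold in Ly49+ cells that stayed past it without the cell holding most of their UMIs, in Ly49+ cells (red, bars for the 95% interval) and comparison cells (grey squares). Of these, 20 were higher and 21 lower in VISTA-KO. The genes were chosen by their ratio in the Ly49+ cells, which have fewer UMIs, so distances from 0 are not comparable between the cell groups.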

How the data were processed

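The deposited files were 10x Genomics matrices of raw UMI counts per gene and cell and tables of assembled TCR contigs, made by the authors with Cell Ranger 5.0.0 on mouse GRCm38 (mm10), per the submitters' processing notes, which also name Seurat 4. The study's methods and the labels describe a 5′ RNA and V(D)J kit, while the extraction text of the labels also describes a 3′ kit, so the kit of the RNA libraries is not settled here. All deposited contigs were productive TRA or TRB chains.

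Counts were summed per library and cell group, scaled to CPM and compared as log2 ratios after adding 5 CPM, which understates the changes of low genes. Genes at 20 CPM or more (50 CPM for VISTA-KO over WT) were compared with a 2-fold limit, with the genes of the gate left out and TCR segments ranked apart. Named were the 15 highest and 15 lowest genes by the smaller of the 2 libraries' ratios, the 8 highest and 8 lowest for VISTA-KO over WT, the most abundant and the changed members of 24 gene lists, and the largest clonotypes. Other list members, and Neurl3, Lat2 and Evl, were named after their values were seen. The members and the lists were chosen with earlier results of these data known. Cells of a library are not replicates, so no p-value was computed. Shares carry Clopper-Pearson intervals, and the upper limit of that interval is given with a share of 0 where a limit is stated. Expected shares at 2000 UMIs were computed in closed form from cells with at least that many, which left out 238 WT and 152 VISTA-KO comparison cells and 0 members.

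Total UMIs were 786213 and 540797 in WT and VISTA-KO Ly49+ cells and 31672169 and 25944585 in comparison cells, so counting error was larger in the members. Scrublet called 1 WT and 0 VISTA-KO cells as doublets, which means that it did not work here. Doublets were therefore kept, and cells above percentile 92 of its score or with 2 or more beta chains (9 of 99 and 8 of 63 members) were left out as an alternative. The scripts were tested on simulated data. A few members of the gene lists are not reported here. Coordinates are those of RefSeq's GRCm38.p6 table. Tools were Python 3.11.15, numpy 2.4.6, scipy 1.17.1, pandas 2.3.3, scanpy 1.11.5 and matplotlib 3.10.9.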

Additional observations from a re-analysis of the deposited data

Results flagged for a closer look

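Gzma, a granzyme of circulating effector and NK cells, differed in opposite directions in the 2 libraries. In WT the log2 ratio of Ly49+ over comparison cells was -0.88 (-1.11 to -0.65), with 190 CPM in members, and in VISTA-KO it was 1.18 (0.99 to 1.36), with 447 CPM. The difference between the libraries was not tested. Gzma was present in 12 WT and 7 VISTA-KO members, and 78 of its 149 WT UMIs and 99 of its 242 VISTA-KO UMIs came from 1 cell each.

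Ly49 RNA was also found outside the CD8 gate. Among Cd3e+ cells without a UMI of Cd4, Cd8a or Cd8b1, 4.81% (45 of 936) in WT and 3.52% (31 of 880) in VISTA-KO held at least 2 UMIs of Klra6 and Klra7, above the 0.217% and 0.248% of CD4 T cells. Their median depth was 3362.5 and 3766 UMIs.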

How the results depend on the processing

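No paired analysis was possible because each genotype had 1 library. The share of Ly49+ cells (WT, then VISTA-KO) was 2.86% and 2.03% with at least 1 Ly49 UMI, 1.30% and 1.15% with at least 3, 0.914% and 0.765% with both Cd8a and Cd8b1 required, 2.44% in WT without the largest clonotype, 28.6% and 16.6% in cells without a Cd8b1 UMI, and 0.807% and 0.633% when computed for 2000 UMIs per cell. The count of genes higher in Ly49+ cells was 32 in cells without Cd8b1, 27 with a pseudocount of 20 CPM and 27 with a minimum of 50 CPM. The count lower was 60 with at least 3 UMIs, 90 in cells with both TCR chains, 99 without Cd8b1, 13 with a pseudocount of 20 CPM, 77 with a minimum of 5 CPM, and 112 when each gene's highest member was left out, which removes counts from the members alone. VISTA-KO over WT gave 66 higher and 62 lower genes with at least 3 UMIs, 124 and 108 without Cd8b1, 17 and 10 with a pseudocount of 20 CPM, and 119 and 101 or 16 and 7 with a minimum of 20 or 100 CPM. The share in clonotypes of at least 5 cells was 0 for VISTA-KO members without doublet candidates or without Cd8b1. For comparison cells it was 74.1% in WT with both CD8 chains required, 63.0% and 40.4% without the largest clonotype, 31.4% and 28.7% without Cd8b1, and 47.9% in VISTA-KO by the beta chain alone. With at least 2 cells it was 19.7% of WT members against 81.5% and 17.6% of VISTA-KO members against 64.0%, and with at least 10 cells 1.52% of WT members and 65.5% and 33.0% of comparison cells. In cells without Cd8b1 the ratios of 4 called genes turned (the mean of the libraries where their signs differed, otherwise the smaller), to -0.41 for Klra9, 0.036 for Mki67, 0.96 for Pclaf and 0.13 for Spc24, as did that of Rgs16 between libraries, to -1.78, and 7 of the 12 dividing-cell genes were above 0 in both libraries. Of 46 genes past 2-fold that were followed, 9 turned in at least 1 library: these 4, Ccl4, Igkc, Prc1, Klre1 and 1500009L16Rik. The cause was not tested. Of the values of named genes under all settings, 1929 were labelled as within the counting interval of the reported ratio, 452 as outside it and 4 as turned. Between the libraries the counts were 138, 21 and 1. The 452 include 13 under each minimum of 5 or 50 CPM, settings that do not change a gene's ratio, so this count overstates the moves. The settings without Cd8b1 and without the highest cell were chosen after seeing the data. Clonotypes that held both members and comparison cells were too few (2 and 3 members) for a comparison within them, which was not run. Counting error limits the members most, since 99 and 63 cells hold few UMIs of any gene under 20 CPM.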
